A study of Mus musculus with 4 samples.

Results

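Bone morphogenetic protein (BMP) ligands and their antagonists were examined in RNA sequencing counts from mouse hindlimb buds at embryonic day 11.5. The 10 genes were taken by symbol from the deposited table of 25239 genes: the ligands Bmp2, Bmp4, Bmp5, Bmp6 and Bmp7, the secreted antagonists Grem1, Nog, Chrd and Fst, and the membrane pseudoreceptor Bambi. All 4 libraries came from FVB mice labelled wild-type in genotype and carrying, at the H11 safe-harbour site, a reporter in which mCherry is driven by the minimal hsp68 promoter and a human copy of the ZRS, the limb enhancer of Shh, with the 404G>A base change. The anterior group (2 libraries) was made of sorted mCherry-positive cells from the anterior part of the bud, and the central group (2 libraries) of sorted mCherry-negative cells from its centre. Both groups therefore carry the transgene and differ in dissected position and in reporter activity together, which cannot be told apart. The labels do not say how many embryos each library holds, so the p-values measure the spread between these libraries, which may be technical.

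BMPs are secreted dimers of the TGF-beta superfamily that signal through type I and type II serine/threonine kinase receptors to Smad1, Smad5 and Smad9. Extracellular antagonists bind the ligands and keep them from the receptors. In the limb bud, BMPs made by mesenchyme and by the apical ectodermal ridge restrain the ridge and later act in cartilage and in interdigital cell death, and Grem1, a BMP antagonist of the mesenchyme, links Shh from the posterior margin to FGFs of the ridge.

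Library totals ranged from 30080925 to 33257383 counts, and 14610 genes had enough counts to be tested. The 7 limb mesenchyme and hindlimb markers had at least 1707 counts each in every library, and 4 of them (Prrx1, Tbx4, Pitx1 and Lmx1b) were not called, while Prrx2 and Twist1 were higher in anterior cells and Hoxc10 lower. Of 10 genes that respond to cell dissociation, Jun and Egr1 were lower in anterior cells (log2 fold changes -1.29 and -1.68), Atf3 was higher (1.55) and 7 were not called, by the test described with the comparison. Over all tested genes, 22.9% were called. The part of handling in the results was not tested. Markers of other cell types differed between the groups. The 11 ectoderm markers summed to 10.4 and 10.4 CPM (a gene's share of its library's counts, with library sizes adjusted by TMM) in the anterior libraries and to 60.4 and 205 in the central ones. The 7 myogenic markers summed to 4.17 and 2.35 against 143 and 142 CPM, the 10 endothelial markers to 14.4 and 22.0 against 43.0 and 52.7 CPM, and the 9 cartilage markers to 515 and 385 against 1649 and 1308 CPM. The 13 blood markers summed to 3304 and 8403 CPM in the anterior libraries and to 11.1 and 13.5 in the central ones. Most of the anterior sum came from the globin genes Hbb-y (1942 and 4867 CPM) and Hba-x (937 and 2457 CPM). Of the white blood cell markers, Csf1r was called higher in anterior cells, and Ptprc, Tyrobp and Fcer1g were not called. Of the defining markers, Myog, Pax7 and the cartilage marker Matn1 were at 0 counts in both anterior libraries, and Hba-a1 and Hba-a2 were at 0 in all 4. In bulk samples, fewer cells of a type and less RNA per cell cannot be told apart.

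Promoter windows are shown for 3 members whose levels differed between the groups, Bmp4 and Bmp5, higher in anterior cells, and Grem1, lower in them. A usable window was taken from the RefSeq promoter table (build GRCm38.p6) for 5 of the 10 members. This count does not show that the table lacks windows for the others. Each line gives the 250 bases before the annotated start, 5′ to 3′ on the gene's strand, with capitals marking a match to GGCGCC, a GC-rich site bound by BMP-activated Smads, or to CCACCCA, the core of the Gli consensus, on either strand. The Bmp4 window lies at chr14:46390670-46390919 on the minus strand, the Bmp5 window at chr9:75775115-75775364 on the plus strand and the Grem1 window at chr2:113758649-113758898 on the minus strand.
Bmp4: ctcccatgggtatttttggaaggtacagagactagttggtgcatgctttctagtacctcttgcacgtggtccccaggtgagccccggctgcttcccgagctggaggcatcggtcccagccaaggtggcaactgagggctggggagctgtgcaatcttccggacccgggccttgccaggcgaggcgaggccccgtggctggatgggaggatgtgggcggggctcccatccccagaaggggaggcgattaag
Bmp5: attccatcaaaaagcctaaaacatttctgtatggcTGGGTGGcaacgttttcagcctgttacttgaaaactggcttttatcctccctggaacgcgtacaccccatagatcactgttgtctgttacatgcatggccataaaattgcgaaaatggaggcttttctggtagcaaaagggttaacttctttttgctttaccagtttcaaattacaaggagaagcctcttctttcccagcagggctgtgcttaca
Grem1: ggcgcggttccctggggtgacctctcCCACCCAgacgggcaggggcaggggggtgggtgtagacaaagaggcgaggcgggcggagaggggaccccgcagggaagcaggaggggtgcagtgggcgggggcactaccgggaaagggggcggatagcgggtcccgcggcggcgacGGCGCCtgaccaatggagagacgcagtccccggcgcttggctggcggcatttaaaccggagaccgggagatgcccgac

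The Grem1 window held 1 match to each of these motifs, the Bmp5 window held 1 Gli core and the Bmp4 window held neither. Of the usable windows not shown, that of Bmp6, also called lower, held neither. That of Chrd, which was not called, held 1 GGCGCC. Of 32851 windows of the same length, 9.59% held GGCGCC and 8.11% held CCACCCA. The Tcf/Lef core CTTTGAA, also searched, is held by 4.46% of windows and by none of the 3 shown. The Grem1 window was rich in G and C (72.0%), as was that of Bmp4 (63.2%), while that of Bmp5 was not (42.8%), against a median of 52.4% over all windows. The motifs were searched on both strands and do not overlap one another here. A match is a description of the letters and not evidence of binding.

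The comparison asked which members differ between anterior cells that switch on the variant enhancer and central cells that do not. Of the 10 members, 4 were called higher in anterior cells (Bmp4, Bmp5, Bmp7 and Bambi), 3 were called lower (Bmp6, Grem1 and Fst) and 3 were not called (Bmp2, Nog and Chrd). A gene was called where edgeR's quasi-likelihood test, adjusted by Benjamini-Hochberg over all tested genes, fell under 0.05. Over the whole table, 22.9% of tested genes were called, 10.7% as higher and 12.3% as lower. The groups did not overlap for 8 of the 10 members, against 63.5% of all tested genes. Fst and Bmp6 met the filter on low counts through the central libraries alone, where they are high, so they could hardly be called higher. The same 7 members were called by each scaling and test that was run with all 4 libraries, except that Bmp6 was not tested under a mean count of at least 50.

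**Figure D1:**
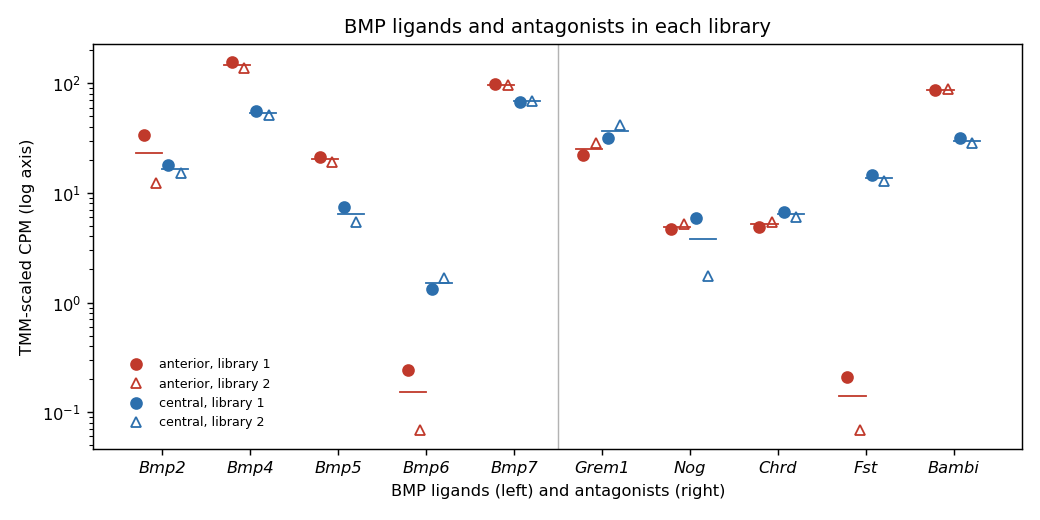
Each point is 1 library's TMM-scaled CPM (log axis) for a BMP ligand (left of the line) or antagonist (right), and each bar is the mean of a group's 2 libraries. Anterior points (red) lie above central points (blue) for Bmp4, Bmp5, Bmp7 and Bambi and below them for Bmp6, Grem1, Chrd and Fst, while for Bmp2 and Nog the groups overlap.

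Among the ligands, Bmp4, Bmp5 and Bmp7 rose in anterior cells and Bmp6 fell. Bmp4, at chr14:46383520-46390669 on the minus strand (GENCODE M21, GRCm38), is made by mesenchyme and ridge of the early limb bud. It measured 155 and 137 CPM in the anterior libraries, against 56.2 and 51.1 CPM in the central ones. Both anterior libraries were well above both central ones, and the replicates of each group lay close together. The mean was 146 ± 12.5 CPM against 53.7 ± 3.64 (SD, n = 2 each), a 2.72-fold difference (log2 fold change 1.44 ± 0.09 SE, edgeR's adjusted p 1.18e-05). Leaving out any library kept the log2 fold change of Bmp4 between 1.36 and 1.53. The ridge, where Bmp4 is also made, is ectoderm, whose markers were lower in the anterior libraries, and their part in the Bmp4 difference was not tested.

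Bmp5, a ligand close in sequence to Bmp6 and Bmp7, measured 21.3 and 19.3 CPM in the anterior libraries, against 7.40 and 5.44 CPM in the central ones. The groups did not overlap, and the ratio between replicates was larger in central than in anterior cells. Its log2 fold change was 1.66 ± 0.18 (SE), or 3.17-fold, with edgeR's adjusted p at 0.000348. Bmp7 measured 98.3 and 95.4 CPM against 67.8 and 68.5 CPM. Its libraries agreed most closely of the 5 ligands, with a ratio between replicates of 1.03 in anterior and 1.01 in central cells. The difference was accordingly small but exceeded the spread, at 1.42-fold (log2 fold change 0.51 ± 0.07 SE, edgeR's adjusted p 0.00139).

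Bmp6 was near the lower limit of the counts. It had 8 and 2 counts in the anterior pair of libraries against 41 and 54 in the central pair, or 0.240 and 0.0682 CPM against 1.33 and 1.67 CPM. Both central libraries were above both anterior ones, and the anterior libraries differed 3.52-fold from each other. The log2 fold change was -3.22 ± 0.67 (SE; edgeR's adjusted p 0.00970). Counting error alone, on counts halved because both mates of a read pair may have been counted, gave a central to anterior ratio of 9.33 (95% exact interval 3.73 to 30.1). The log2 fold change of Bmp6 was -4.38 without anterior replicate 1 and -2.62 without anterior replicate 2. Exons of Bmp6 overlap those of Txndc5 on the opposite strand, a gene with 5623 to 6462 counts per library, and whether counting used strand is not given in the sources used here, so the low Bmp6 counts are uncertain. The summed markers of ectoderm, muscle, endothelium and cartilage were also lower in the anterior libraries, and their part in the Bmp6 and Fst differences was not tested. Singly, 1 of 11 ectoderm, 4 of 10 endothelial and 3 of 8 tested cartilage markers were not called, while all 7 myogenic markers were called lower. Of all tested genes, 12.3% were called lower. The myogenic markers other than Met met the filter on low counts only through the central libraries. So did the ectoderm markers other than Epcam, Krt8 and Krt18, and the endothelial Cldn5 and Emcn. These genes could hardly be called higher.

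Bmp2, which in the limb bud is made in posterior mesenchyme and in the ridge and lies downstream of Shh, was not called. It measured 33.8 and 12.2 CPM in the anterior libraries, against 17.9 and 15.0 CPM in the central ones. The highest and the lowest of the 4 values were both anterior, so the central values lay within the anterior range. The log2 fold change was 0.49 (95% interval -0.35 to 1.33) with edgeR's adjusted p at 0.393. The value turned on 1 library. The log2 fold change was -0.43 without anterior replicate 1 (adjusted p-value 0.183), and 1.04 without anterior replicate 2 (adjusted p-value 0.000306, edgeR, the lone anterior library being assumed to vary like the others). Shh split the same way, at 27.4 and 11.7 CPM in the anterior libraries, against 13.2 and 12.2 CPM in the central ones. The part of Shh-expressing cells in the Bmp2 spread was not tested.

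Bambi and Grem1, the most abundant antagonists per length, went in opposite directions. Bambi encodes a membrane protein that resembles a type I receptor without a kinase domain, and its expression is known to follow that of Bmp4 in embryos. It measured 87.2 and 87.6 CPM in the anterior libraries, against 31.6 and 28.4 CPM in the central ones. The anterior libraries were nearly equal and both stood above the central ones. The difference was 2.92-fold (log2 fold change 1.54 ± 0.09 SE, edgeR's adjusted p 8.23e-06), beside the 2.72-fold of Bmp4. The processed pseudogene Bambi-ps1, which could share reads with Bambi, had only 18 to 42 counts per library, against 918 to 2910 for Bambi.

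Grem1, at chr2:113746164-113758646 on the minus strand, measured 21.9 and 28.3 CPM in the anterior libraries, against 31.5 and 41.2 CPM in the central ones. The groups did not overlap, but the higher anterior and the lower central library were separated by less than the libraries within either group. Grem1 was 1.45-fold lower in anterior cells (log2 fold change -0.54 ± 0.16 SE, 95% interval -0.90 to -0.18), with edgeR's adjusted p at 0.0404, and between 0.00331 and 0.0423 under the alternatives that keep all 4 libraries. The Grem1 log2 fold change was -0.36 without anterior replicate 1 (edgeR's adjusted p 0.162), and -0.33 without central replicate 2 (adjusted p-value 0.123), so that the call was lost in both cases. Fmn1, the neighbouring gene whose locus holds limb enhancers of Grem1, measured 6.27 and 6.82 CPM against 7.34 and 10.2 CPM and was not called (edgeR's adjusted p 0.212).

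Fst had the largest difference of the 10 members. It encodes follistatin, a secreted protein that binds activins and some BMPs, and lies at chr13:114452290-114458951 on the minus strand. It had 7 and 2 counts in the anterior pair of libraries against 450 and 411 in the central pair, or 0.210 and 0.0682 CPM against 14.6 and 12.7 CPM. Fst was thus close to the floor of 3 counts in anterior cells and plainly present in both central libraries. Its log2 fold change was -6.54 ± 0.37 (SE; edgeR's adjusted p 8.32e-06), larger in size than that of 99.3% of tested genes. That rank rests on anterior counts near the floor. Having met the filter on low counts only through the central libraries, Fst could hardly be called higher. The ratio of summed halved counts was 85.5, with a 95% exact interval from counting error of 36.4 to 265. The log2 fold change of Fst was -7.56 without anterior replicate 1 and -5.99 without anterior replicate 2. The central libraries were close to each other in Fst (ratio 1.15).

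Nog and Chrd were low in both groups and were not called. Nog, encoding noggin, a BMP antagonist of cartilage condensations, measured 4.68 and 5.18 CPM in the anterior libraries, against 5.91 and 1.73 CPM in the central ones. The central libraries held both the highest and the lowest value and differed 3.42-fold. For Nog the log2 fold change was 0.37 (95% interval -0.71 to 1.45, edgeR's adjusted p 0.629). Without central replicate 1 it was 1.51 (adjusted p-value 0.00689) and without central replicate 2 it was -0.26 (adjusted p-value 0.586). Gdf5, a BMP-family ligand of developing joints, split the central libraries alike, at 15.2 and 4.20 CPM, and the cartilage proteoglycan gene Acan measured 3.44 and 0.185 CPM. Among the other cartilage markers, Matn1 split like Acan (1.88 and 0.0618 CPM) and Hapln1 went the other way (5.71 and 12.6 CPM). The rest split less, with Sox9 at 330 and 309 CPM and Col2a1 at 900 and 676 CPM. The part of condensing cells in the Nog spread was not tested. Chrd, encoding chordin, measured 4.89 and 5.42 CPM against 6.72 and 6.06 CPM. The groups did not overlap, but the difference of -0.31 on the log2 scale was not called (95% interval -0.81 to 0.19, edgeR's adjusted p 0.359).

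**Figure D2:**
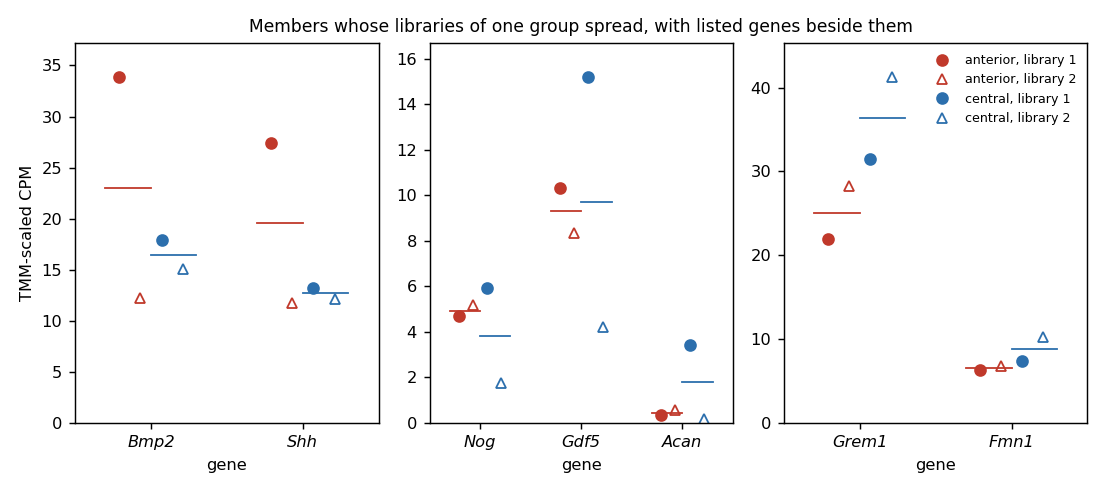
TMM-scaled CPM (linear axis from 0) of Bmp2, Nog and Grem1, with listed genes beside each, points being libraries and bars the group means. Bmp2 and Shh are highest in anterior library 1, Nog, Gdf5 and Acan are highest in central library 1 and lowest in central library 2, and Grem1 and Fmn1 are highest in central library 2. Not every cartilage marker splits like Acan, and Hapln1, not shown, is higher in central library 2 than in central library 1.

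**Figure D3:**
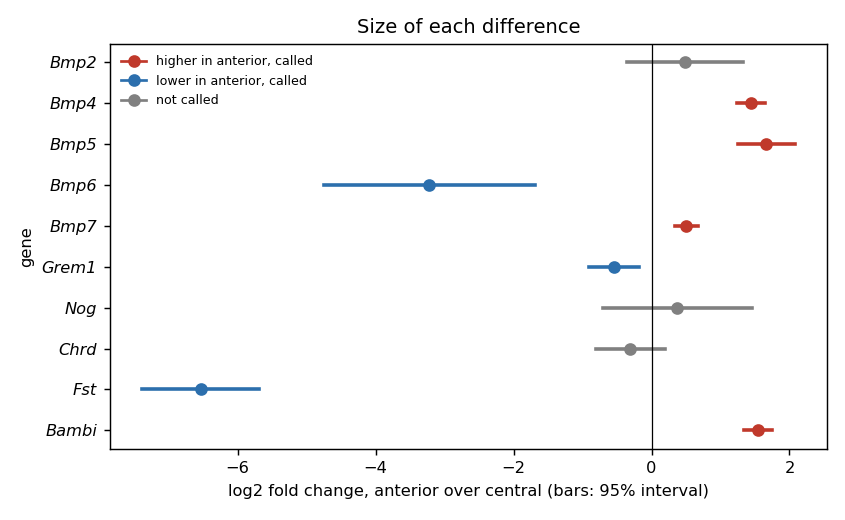
Log2 fold change of each member (point) with its 95% interval (bar) from edgeR's quasi-likelihood fit. The intervals of Bmp2, Nog and Chrd cross 0, that of Grem1 ends at -0.18, and that of Fst lies between -7.38 and -5.69.

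Levels of different genes were compared per kilobase of annotated exon length (CPM per kb, GENCODE M21 on GRCm38, the build named mm10 in the submitters' processing notes). In both groups Bmp4 was the highest ligand, at 65.0 ± 5.54 CPM per kb in anterior and 23.9 ± 1.62 in central cells (SD, n = 2), followed by Bmp7 at 24.1 ± 0.521 and 17.0 ± 0.121. Bmp2 and Bmp5 followed, at 6.48 ± 4.30 and 5.04 ± 0.355 CPM per kb in anterior cells, where they did not differ beyond their spread. In central cells Bmp2 was above Bmp5, at 4.64 ± 0.573 against 1.60 ± 0.345 CPM per kb. Bmp6 was lowest in both groups, at 0.0395 ± 0.0311 and 0.385 ± 0.0611 CPM per kb. Bmp4 made up 64.6 ± 1.40% of the summed level of the 5 ligands in anterior and 50.3 ± 0.915% in central cells, and Bmp7 24.1 ± 2.05% and 35.8 ± 2.03%. By raw counts without division by length, the order of these ligands in central cells turned, with 36.7% for Bmp4 and 46.7% for Bmp7.

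The antagonists changed order between the groups. In anterior cells Bambi led at 17.2 ± 0.0547 CPM per kb, followed by Grem1 at 6.05 ± 1.08, Nog at 2.91 ± 0.210, Chrd at 0.824 ± 0.0602 and Fst at 0.0303 ± 0.0218 (SD, n = 2). In central cells Grem1 led at 8.77 ± 1.66 CPM per kb, followed by Bambi at 5.91 ± 0.455 and Fst at 2.98 ± 0.295. Nog at 2.25 ± 1.74 CPM per kb overlapped with both Fst and Chrd (1.02 ± 0.0753). Fst thus made up 14.2 ± 0.790% of the summed level of the 5 antagonists in central cells and 0.114 ± 0.0866% in anterior cells, and Grem1 42.1 ± 9.75% and 22.3 ± 2.86%.

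**Figure D4:**
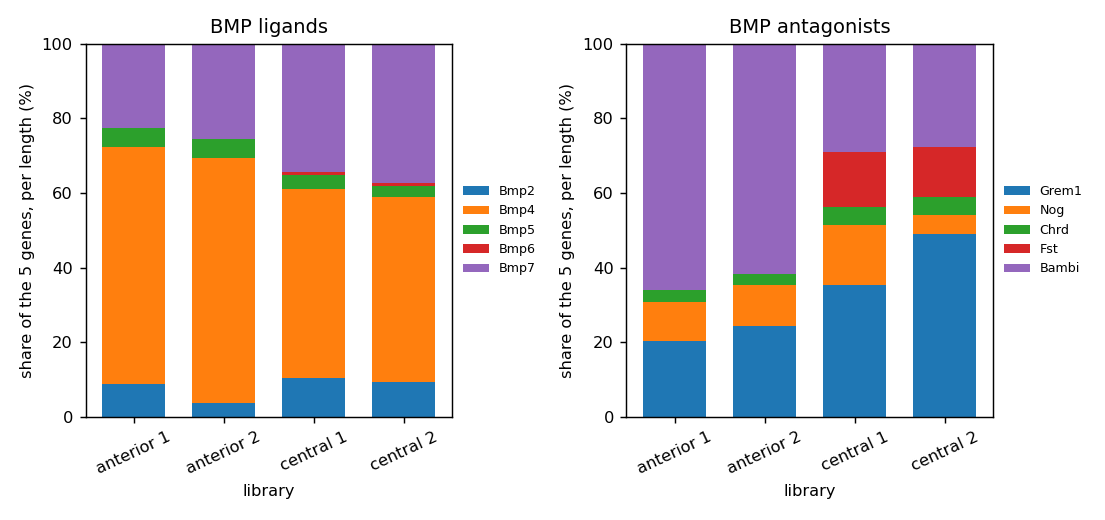
Stacked bars give each gene's share (%) of the summed per-length level of the 5 BMP ligands (left) and of the 5 antagonists (right) in each library. The Bmp4 share is larger in both anterior libraries (63.6% and 65.6%) than in the central ones (50.9% and 49.6%), and Fst is visible only in the central bars of the antagonist panel, where it takes 14.8% and 13.6%.

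Summed over the 5 ligands, the level per length was 108 and 93.0 CPM per kb in the anterior libraries, against 49.1 and 45.8 in the central ones. The secreted antagonists Grem1, Nog, Chrd and Fst summed to 8.87 and 10.8 CPM per kb in the anterior libraries, against 15.3 and 14.7 in the central ones. The ratio of ligand to secreted antagonist transcripts was therefore 12.2 and 8.65 in anterior and 3.20 and 3.12 in central cells. With Bambi included, the 5 antagonists summed the other way, to 26.1 and 28.0 CPM per kb in anterior and 21.6 and 20.3 in central cells, and the ratio of ligands to all 5 was 4.15 and 3.32 against 2.28 and 2.26. The ratio of Bmp4 to Grem1 per length was 13.0 and 8.96 against 3.29 and 2.29. None of these ratios overlapped between the groups, and neither did 63.5% of all tested genes. The ratios are built from the members compared above, so their separation is not separate evidence. They are given as descriptions because with 2 libraries against 2 an exact two-sided permutation test cannot give a p-value under 0.333. These are transcript levels and say nothing of protein amounts or of binding affinities.

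Genes known to respond to BMP signalling were called higher in anterior cells in 7 of 9 cases and lower in none, with a median log2 fold change of 0.89 beside -0.01 over all tested genes. Of all tested genes, 10.7% were called higher. The list was chosen with earlier results of these data known, so its count is a description only. Msx1 and Msx2, homeobox genes induced by BMPs, were higher by 3.26 and 2.80 on the log2 scale (edgeR's adjusted p values 1.06e-06 and 3.72e-06). Id1, an inhibitor of basic helix-loop-helix factors, measured 267 and 264 CPM in the anterior libraries, against 144 and 83.4 CPM in the central ones (log2 fold change 1.23, edgeR's adjusted p 0.00277), and Id3 measured 255 and 270 against 149 and 101 CPM. In both Id genes the anterior libraries agreed and the central ones differed, with central library 1 the higher. The inhibitory Smad7 measured 122 and 104 against 60.8 and 61.3 CPM (log2 fold change 0.89, edgeR's adjusted p 0.000218), and Id2 and Atoh8 were higher by 0.59 and 0.56 on the log2 scale. Id4 (0.67) and Smad6 (0.15) were not called, with edgeR's adjusted p values of 0.0506 and 0.254. Several of these genes also respond to other signals, and the part of BMP in their differences was not tested.

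Of the 11 receptor and co-receptor genes, 4 were called lower in anterior cells and none higher, with a median log2 fold change of -0.17. The shares over all tested genes were 12.3% lower and 10.7% higher. The co-receptor genes Rgma and Rgmb fell alike, Rgma from 76.3 and 86.4 CPM in the central libraries to 30.4 and 28.6 CPM in the anterior ones, and Rgmb from 66.2 and 74.9 to 25.1 and 26.1 CPM. Both had log2 fold changes of -1.46 ± 0.09 (SE), with edgeR's adjusted p values of 1.58e-05 and 1.65e-05. Bmpr1b, the type I receptor gene of cartilage condensations, measured 13.0 and 7.09 against 29.1 and 21.6 CPM (log2 fold change -1.33, adjusted p-value 0.00691, edgeR). Eng, an endothelial co-receptor gene, fell by 1.21 on the log2 scale beside the lower endothelial markers (edgeR's adjusted p 0.0196), and its call was lost without anterior replicate 2 (0.0853) or central replicate 2 (0.0621). The broadly expressed Bmpr1a and Bmpr2 had log2 fold changes of -0.17 and 0.08 and were not called (edgeR's adjusted p values 0.0709 and 0.391). For Bmpr1a the adjusted p-value was 0.0394 with library size alone, 0.0322 with upper-quartile factors and 0.0495 with a mean count of at least 50. Of the 9 Smad and regulator genes, Skil was called higher (0.27) and Tob1 lower (-0.29), both by small amounts, and the other 7 were not called. These 2 calls are near the share over all tested genes, 22.9%. Tob1 was not called by DESeq2's Wald test (adjusted p-value 0.0735), and both calls were lost without either anterior replicate, that of Tob1 also without central replicate 2.

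Among 9 further BMP and GDF ligands, 4 had enough counts to be tested and 2 were called, against 22.9% of all tested genes. Of these, Bmp3 met the filter on low counts only through the central libraries, so it could hardly be called higher. Gdf6 rose from 1.95 and 2.01 CPM in the central libraries to 11.9 and 10.4 CPM in the anterior ones (log2 fold change 2.49 ± 0.22 SE, edgeR's adjusted p 0.000108). Bmp3, an atypical ligand that can oppose other BMPs, had 10 and 6 counts in the anterior libraries against 124 and 84 in the central ones (log2 fold change -3.68, adjusted p-value 0.00102, edgeR). Gdf5 and Gdf7 were not called. Of the chordin proteases, Bmp1 was slightly lower in anterior cells (log2 fold change -0.31, edgeR's adjusted p 0.00987), a call lost without either anterior replicate, and Tll1 was not called.

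Of 13 other extracellular modulators, 12 were tested, of which 4 were called lower in anterior cells and 1 higher. Of all tested genes, 12.3% were called lower and 10.7% higher. Sost and Sostdc1 met the filter on low counts only through the central libraries, so they could hardly be called higher. Sostdc1, encoding a secreted inhibitor of BMP and Wnt signals, had 28 and 7 counts against 358 and 386 (log2 fold change -4.41, edgeR's adjusted p 0.000137). Sost had 0 and 2 counts in the anterior pair of libraries against 44 and 273 in the central pair. The ratio of its summed halved counts was 157 (95% exact interval 27.7 to 6232). It was called by edgeR (adjusted p-value 0.00328) and by limma-voom (0.0464), with a fitted log2 fold change of -7.10 that ranged from -10.31 without anterior replicate 2 to -5.30 without central replicate 2. Chrdl1, a chordin-like antagonist gene, measured 16.5 and 13.9 against 45.1 and 38.6 CPM, and Nbl1, of the same DAN family as Grem1, measured 14.2 and 6.95 against 48.7 and 32.6 CPM. Their log2 fold changes were -1.46 and -1.94. Without anterior replicate 1, those of Sostdc1 and Nbl1 were -5.60 and -2.54, and without anterior replicate 2 they were -3.80 and -1.52. Kcp, encoding a chordin-like protein that enhances BMP signalling, was the 1 gene called higher, at 123 and 124 against 76.6 and 88.8 CPM (log2 fold change 0.58, edgeR's adjusted p 0.00163). The abundant Fstl1 and Twsg1 differed by 0.02 and 0.05 on the log2 scale and were not called.

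Of 8 tested genes of the loop joining Shh, Grem1 and the ridge FGFs, 5 were called lower in anterior cells, 1 higher and 2 not. The shares over all tested genes were 12.3% lower and 10.7% higher. Fgf8 and Fgf9 met the filter on low counts only through the central libraries, so they could hardly be called higher. Fgf9 had 13 and 8 counts in the anterior libraries against 388 and 431 in the central ones (log2 fold change -5.26, edgeR's adjusted p 7.24e-06). Fgf8, the ridge signal, had 8 and 2 counts against 177 and 946 and is itself among the ectoderm markers (log2 fold change -6.75, and -7.92 to -5.15 when each library was left out, with edgeR's adjusted p 0.00120 and an adjusted p of 0.119 with limma-voom). Fgf17 was called at 0.0376 by edgeR but not by limma-voom (adjusted p-value 0.0863), and its call was lost without either anterior replicate or central replicate 2. Gli3 was higher by 0.81 on the log2 scale (edgeR's adjusted p 0.00034), while the hedgehog targets Ptch1 and Gli1 had log2 fold changes of -0.54 and -0.42, beside -0.54 for Grem1. The call of Gli1 was lost without anterior replicate 2 (edgeR's adjusted p 0.0788).

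**Figure D5:**
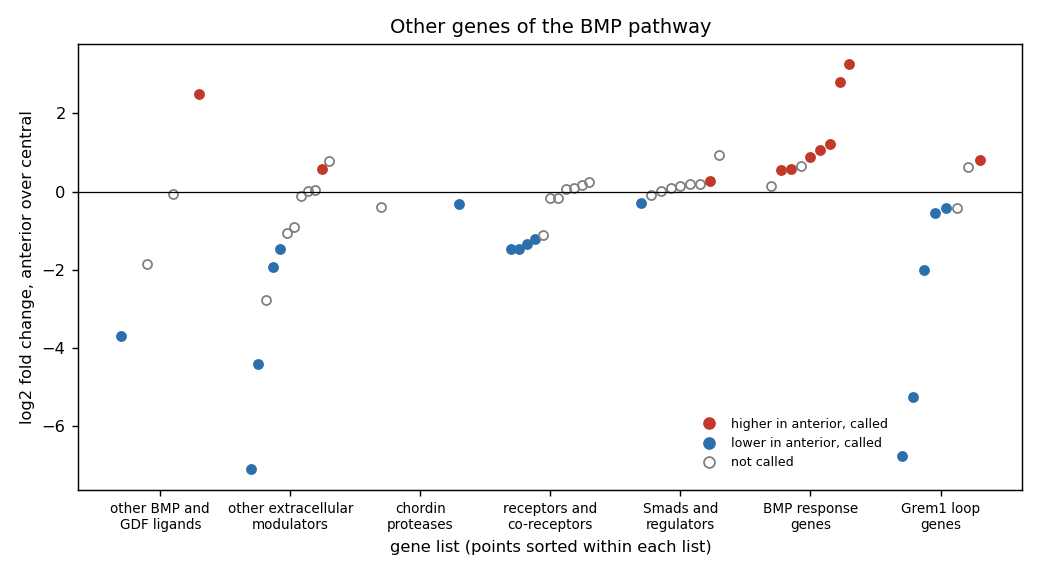
Each point is the log2 fold change of 1 tested gene in 7 lists of BMP pathway genes, red where called higher in anterior cells, blue where called lower and open where not called. The response genes lie at or above 0.15, and the receptors range from -1.46 to 0.25.

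The genes whose profiles over the 4 libraries were most like that of Bmp4, among 10604 genes with a mean of at least 5 CPM, were Wnt5a, Pdzd2, Epb41l4b, Lef1 and Tspan18. Their Euclidean distances from Bmp4, on log2 CPM centred on each gene's mean, were 0.0765 to 0.0978. Wnt5a, a Wnt ligand of the distal limb bud, measured 717 and 643 CPM in the anterior libraries, against 264 and 253 CPM in the central ones, and Lef1, a nuclear effector of Wnt signalling, measured 191 and 173 against 69.1 and 68.2 CPM. The genes most like Grem1 were Klf12, Ccdc171, Mtcl1, Hsd3b7 and Ahdc1, at distances of 0.0686 to 0.148. Klf12 measured 44.7 and 56.3 CPM against 60.4 and 80.1 CPM, with the same order of the 4 libraries as Grem1. With 4 libraries these likenesses are descriptions only.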

How the data were processed

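Values are raw read counts per gene symbol, deposited by the authors as whole numbers without normalization. The submitters' processing notes name STAR 2.7.9a, HTSeq and the build mm10, and the annotation and strand setting are not given in the sources used here. Of the counts from 1 to 10, 72.8% to 75.6% were even, as when both mates of a pair are counted. Intervals and floors cover counting error only, and a floor of 3 counts equals 0.0899 to 0.102 CPM. Count columns were matched to samples by domain and replicate number, and 0 columns were left over.

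Counts were fitted with edgeR 4.0.16 in R 4.3.3 (filterByExpr, TMM, quasi-likelihood F test, Benjamini-Hochberg adjustment over 14610 genes, 2 residual degrees of freedom). The SE is the absolute log2 fold change divided by the square root of F, and 95% intervals use the fit's total degrees of freedom. The procedure was tested on simulated counts. Alternatives used DESeq2 1.42.0, limma 3.58.1, other scalings and filters, halved counts, a replicate block, removal of blood genes, a threshold of 0.01 and leaving out each library.

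Members and gene lists were chosen with earlier results of these data known. The text names all members, up to 4 called genes with the largest change per list, listed genes a result turns on, and the 5 genes most like Bmp4 and Grem1 by profile. Exons of Bmp4, Bmp5, Bmp6, Chrd and Fst overlap a gene on the opposite strand.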

Additional observations from a re-analysis of the deposited data

How the results depend on the processing

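All 10 members kept their direction and their side of the 0.05 threshold under the 10 other scalings, tests, filters, count units and blocks run on all 4 libraries, except that Bmp6 was not tested under a mean count of at least 50. At a threshold of 0.01, 6 members were called and Grem1 was not. The count of called members was 7, and 6 to 8 when 1 library was left out. The count of genes called was 3351, 1690 at a threshold of 0.01, and 2009 to 3697 when 1 library was left out. Among the counts with 1 library left out, the smallest came without anterior replicate 2. Of 42 genes recomputed, 37 kept direction and side with all 4 libraries. When 1 library was left out, the log2 fold change ranged from -0.43 to 1.04 for Bmp2, -0.26 to 1.51 for Nog, -0.70 to 1.15 for Gdf5 and -0.11 to 1.11 for Shh. Gdf5, at -0.05, also turned to 0.25 with limma-voom and 0.16 with the replicate block. The cause was not tested.

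Shares by raw counts without division by length moved to 51.1% and 36.7% for Bmp4 and to 34.0% and 46.7% for Bmp7 in anterior and central cells, because Bmp7 has the longer exons (4019 against 2248 bases). With the replicate block, 7 members and 3586 genes were called, and the adjusted p-value of Grem1 was 0.00331 (edgeR). The labels give same-numbered libraries only a shared number and do not say whether they share embryos. The replicate differences of the groups correlated across genes at 0.046 (Pearson), which cannot decide this, because the groups are different sorted cells. Counts near the floor limit Bmp6 and Fst in anterior cells.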
